A study of Homo sapiens with 12 samples.

Results

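The response of A549 cells to ionizing radiation was measured in cells carrying a control hairpin, from 6 of the 12 poly(A) RNA libraries of the study. The irradiated group held 3 libraries of shControl cells taken 3 days after ionizing radiation, and its control held 3 libraries of shControl cells given sham irradiation. The 6 libraries were chosen by their labels. The other 6 libraries came from A549 cells with a hairpin against TRIM22, which encodes a tripartite-motif E3 ubiquitin ligase, irradiated or sham irradiated in the same way, and are used here only to set their response beside that of the shControl cells. Every group therefore carried a short hairpin, and the shControl cells are labelled wild type. The radiation dose, the harvest time of the sham cells, whether the hairpin lines were clones and whether the replicates were separate cultures have no entry in the labels used here, so each p-value below measures the spread between these libraries, which may be technical. If the sham cells were taken at another time, irradiation and time in culture cannot be told apart for any gene below. Of the 58735 genes in the authors' count table, 33430 had at least 1 read in the 6 libraries and 16072 had enough reads to be tested.

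A549 is a human lung adenocarcinoma line with an alveolar type II origin, intact p53 and a KEAP1 mutation that keeps the NRF2 antioxidant programme high at rest. Ionizing radiation breaks DNA, the damage kinases stabilise p53, and p53 switches on the CDK inhibitor CDKN1A, which halts the cell cycle. Over the following days surviving epithelial cells often become large and flat, lose the nuclear lamina protein lamin B1, enlarge their lysosomes and secrete cytokines, proteases and matrix proteins, a state described as therapy-induced senescence. A549 cells also make many proteins that the liver secretes into plasma, such as fibrinogen and complement.

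The libraries held 14468386 to 17783397 counted reads in irradiated cells and 15940088 to 17063837 in sham cells, and mitochondrially encoded genes took 12.8% to 13.6% of the reads in irradiated cells and 10.8% to 13.1% in sham cells, with sham replicate 3 lowest. The first principal component of the 6 libraries, with 49.3% of the variance, separated irradiated from sham cells. TRIM22, the target of the other hairpin, had 18.5, 17.7 and 16.6 CPM in irradiated cells, against 2.83, 1.75 and 2.25 CPM in sham cells, and in shTRIM22 cells it had 2.47, 2.17 and 1.35 CPM after irradiation and 0.326, 0.304 and 0.293 CPM after sham irradiation. The hairpin was therefore accompanied by lower TRIM22 in either condition, as its label states, and TRIM22 itself was among the largest rises of the shControl cells (log2 fold change 2.93 ± 0.16). The summed level of 10 lung epithelial markers was 13740 to 14589 CPM in irradiated cells and 10773 to 11303 CPM in sham cells. The sum hides opposite changes: of the 9 markers tested, 5 rose and 2 fell, 1 of them by at least 1.5-fold. Markers of fibroblasts, endothelium, blood and kidney or cervix lines summed to at most 33.1 CPM in any of the 6 libraries, and the T and B cell genes CD3E and MS4A1 and the endothelial gene KDR had no read. Of the blood markers only CD14 was tested, and it passed the test.

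Of the 16072 genes tested, 5224 (32.5%) passed the test between irradiated and sham cells at a Benjamini-Hochberg adjusted p below 0.05 in edgeR's quasi-likelihood test. Of these, 2652 (16.5% of genes tested) were higher in irradiated cells and 2572 (16%) were lower. With a fold of at least 1.5 added, 673 genes (4.19%) rose and 604 (3.76%) fell, together 1277 (7.95%), and 463 genes (2.88%) changed by at least 2-fold in either direction. Values of the 3 irradiated and the 3 sham libraries did not overlap for 6920 genes (43.1%). These shares are the background against which the gene groups below are read. Genes named by rule below were required to have groups that did not overlap, so a lack of overlap adds no support for them. The count of calls depended on which libraries set the spread: with all 12 libraries in one fit 3107 genes passed, and 3053 of those were also called in the fit to the 6 libraries. Levels are given below as CPM, the count of a gene divided by the TMM-scaled library size and multiplied by 1e6, and a CPM is compared only between libraries for the same gene.

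**Figure D1:**
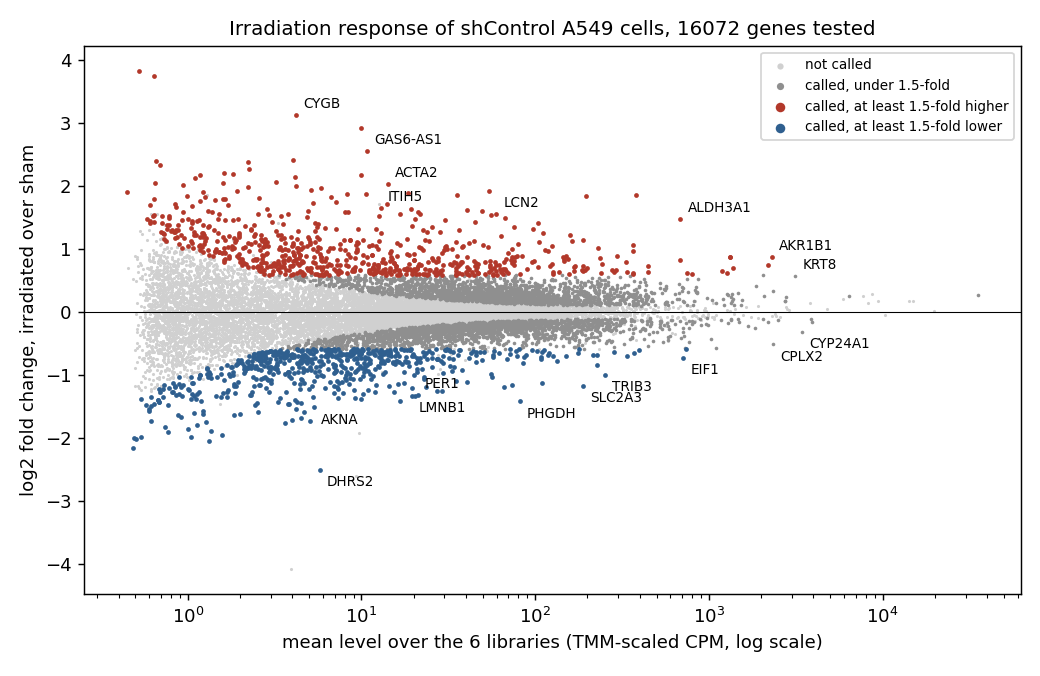
Log2 fold change between irradiated and sham shControl cells (vertical axis) against mean level over the 6 libraries (horizontal axis, log scale, CPM) for each of the 16072 genes tested. Coloured points mark the 673 genes that rose and the 604 that fell by at least 1.5-fold at an adjusted p below 0.05, and labelled genes are described in the text.

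The share of genes called grew with abundance, while the share past 1.5-fold shrank. Among 13295 protein-coding genes split into 5 equal groups by mean level, 9.25% of the least abundant group were called higher and 9.29% lower, against 32.3% and 24.3% in the most abundant group. At 1.5-fold, 8.61% of the least abundant group rose and 8.39% fell, against 2.52% and 1.17% in the most abundant group. Among long non-coding RNA genes, 53 of 638 lincRNA genes (8.31%) rose and 44 (6.9%) fell, and 37 of 846 antisense genes (4.37%) rose and 40 (4.73%) fell. Gene families showed marked leanings. Of 14 annexin (ANXA) genes, which encode calcium-dependent membrane-binding proteins, 10 (71.4%) were higher and 2 lower, and 15 of 25 collagen (COL) genes, 8 of 12 genes with the stem CYB, 8 of 15 GALNT genes, which start mucin-type O-glycosylation, and 7 of 12 aldo-keto reductase (AKR) genes were higher. Families with the highest shares lower were the MCM family, mainly replicative helicase subunits, with 9 of 10, the KLF zinc-finger factors with 9 of 12, the LSM RNA-binding proteins with 7 of 13, the kinesins (KIF) with 18 of 34, the nucleoporins (NUP) with 11 of 21 and the PHF family with 9 of 18.

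Proteins that the liver makes in the acute-phase response were higher after irradiation. Of 20 such genes listed, 12 were tested; 11 of these rose and none fell, and 7 rose by at least 1.5-fold. The median log2 fold change of the 12 was 0.82, beside -0.01 over all genes tested. The gene for lipocalin 2, LCN2 (chr9:128149071-128153455, GRCh38), which binds bacterial siderophores, had 84.8, 86.4 and 95.8 CPM in irradiated cells, against 29.1, 32.05 and 28.9 CPM in sham cells. All 3 irradiated libraries stood above all 3 sham libraries, with a log2 fold change of 1.55 ± 0.064 (SE; edgeR, adjusted p = 6.33e-17). Complement C3, the convergence point of the complement pathways, had 1621, 1684 and 1870.3 CPM in irradiated cells, against 947, 959 and 885 CPM in sham cells. The groups did not overlap, and C3 gave a log2 fold change of 0.87 ± 0.046 (SE; edgeR, adjusted p = 4.45e-13). CFB, the factor B of the alternative complement pathway, averaged 8.88 ± 0.857 CPM in irradiated cells and 3.47 ± 0.319 CPM in sham cells (SD, n = 3 each), with a log2 fold change of 1.34 ± 0.16 (SE; edgeR, adjusted p = 2.58e-07). The serum amyloid genes SAA1 and SAA2 had log2 fold changes of 1.55 ± 0.22 and 2.27 ± 0.296, at no more than 6.99 CPM in any of the 6 libraries. SAA1 and SAA2 are near-identical copies, so reads may have been split between them. The endotoxin-binding protein gene LBP averaged 5.11 ± 0.962 CPM in irradiated cells and 1.93 ± 0.495 CPM in sham cells (SD, n = 3 each), a log2 fold change of 1.398 ± 0.23. The 3 fibrinogen chain genes FGA, FGB and FGG rose less by log2 fold changes of 0.53 ± 0.052, 0.28 ± 0.045 and 0.304 ± 0.051. FGA, the most changed of them, had 980.4, 951 and 1133 CPM in irradiated cells, against 689, 707 and 702 CPM in sham cells.

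Genes of coagulation, fibrinolysis and complement rose in the same direction. Of 28 tested, 18 rose, 11 of them by at least 1.5-fold, and 1 fell, and their median log2 fold change was 0.41. PLAU, the urokinase plasminogen activator, had 305, 319 and 289 CPM in irradiated cells, against 171, 169 and 157 CPM in sham cells. The groups did not overlap, and PLAU gave a log2 fold change of 0.86 ± 0.045 (SE; edgeR, adjusted p = 9.62e-15). The protease inhibitor SERPINE2 averaged 98.9 ± 1.51 CPM in irradiated cells and 48.7 ± 2.26 CPM in sham cells (SD, n = 3 each), and the Kunitz inhibitor TFPI2, which is deposited in matrix, averaged 1464 ± 23.1 CPM in irradiated cells and 917 ± 2.45 CPM in sham cells (SD, n = 3 each). Log2 fold changes were 1.004 ± 0.054 for SERPINE2 and 0.66 ± 0.036 for TFPI2. The proteases that start the classical complement pathway, C1S and C1R, rose by log2 fold changes of 1.02 ± 0.049 and 0.84 ± 0.063. Prothrombin (F2) and coagulation factor V (F5) rose by log2 fold changes of 1.16 ± 0.198 and 0.65 ± 0.086. C1S lies within a stretch shared with EMG1 on the same strand, and EMG1 held 26 CPM.

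Plasma carrier proteins followed. Of 24 listed, 16 were tested, 9 rose, 8 of them by at least 1.5-fold, and none fell. Vitronectin (VTN), an adhesive protein of plasma and matrix, had 109, 109 and 110.0 CPM in irradiated cells, against 56.01, 52.1 and 44.5 CPM in sham cells. The irradiated values were higher than every sham value, with a log2 fold change of 1.09 ± 0.061 (SE; edgeR, adjusted p = 1.27e-13). RBP4, the retinol carrier, averaged 28.2 ± 3.304 CPM in irradiated cells and 10.8 ± 0.5302 CPM in sham cells (SD, n = 3 each), and the inter-alpha-inhibitor gene ITIH5 averaged 19.6 ± 2.62 CPM in irradiated cells and 6.18 ± 0.693 CPM in sham cells (SD, n = 3 each). Their log2 fold changes were 1.37 ± 0.102 and 1.65 ± 0.13. Fetuin-B (FETUB), a plasma inhibitor of astacin proteases, had 1.55, 1.3 and 1.83 CPM in irradiated cells, against 0.4395, 0.689 and 0.169 CPM in sham cells, and rose by a log2 fold change of 1.85 ± 0.44. APOL1, an apolipoprotein of the HDL particle that is also inducible by interferon, rose by a log2 fold change of 1.12 ± 0.07, whereas APOE, AHSG and AMBP did not pass the test, with log2 fold changes of -0.043 ± 0.21, 0.037 ± 0.44 and -0.34 ± 0.29.

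**Figure D2:**
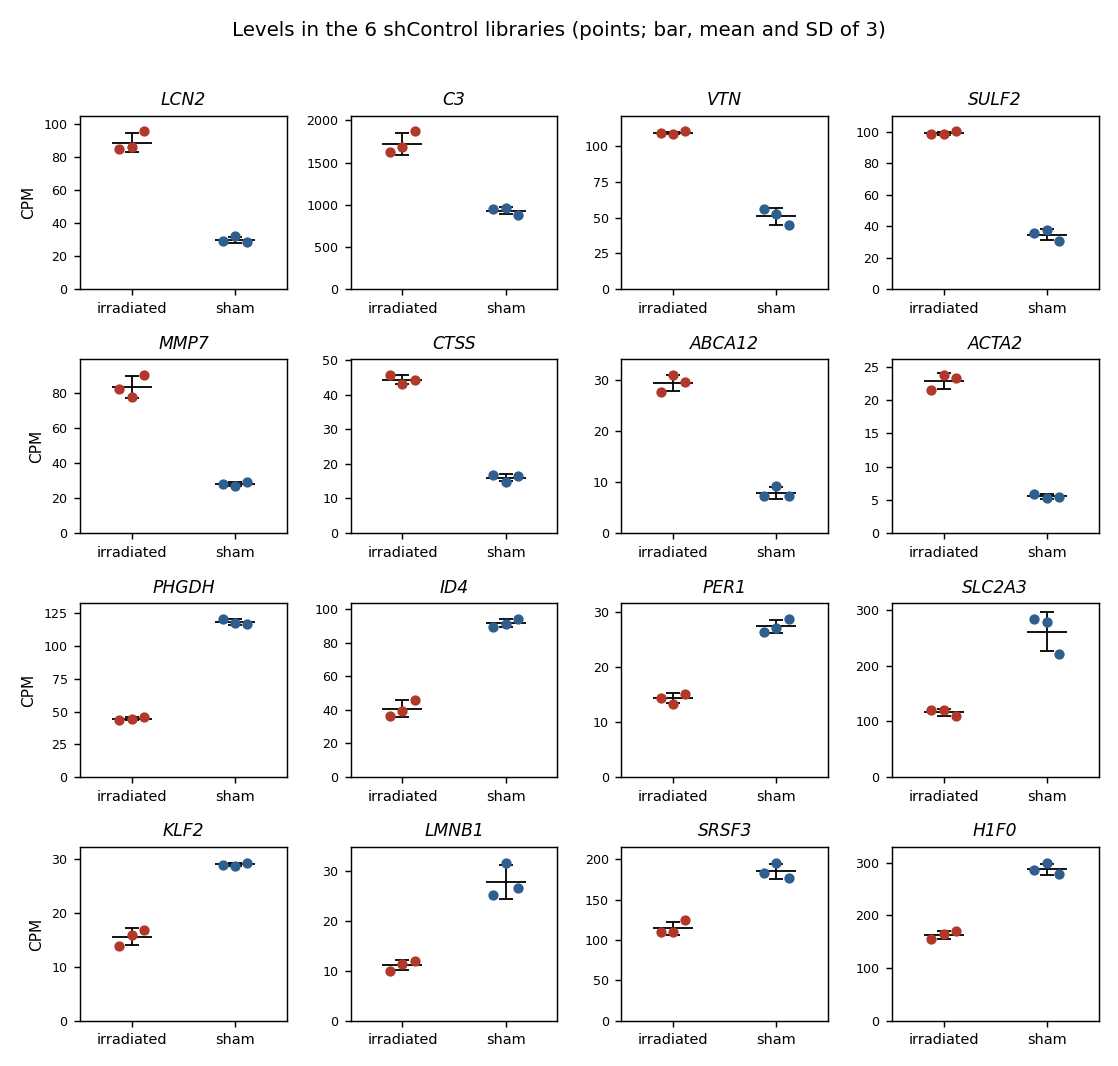
Level in each library (vertical axis from 0, CPM) of 16 genes named in the text; irradiated cells are on the left and sham cells on the right of each panel, points are the 3 libraries of a group and the bars their mean and SD. In each panel the irradiated and the sham points do not overlap. The naming rule required this of genes named by rule, and 43.1% of all genes tested did not overlap.

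Extracellular matrix genes rose more often than they fell. Of 42 laminin, integrin and matrix glycoprotein genes tested, 23 rose and 6 fell, and the 6 became 1 with all 12 libraries in the fit. LAMA3 and LAMB3, which encode chains of the laminin found beneath hemidesmosomes, rose by log2 fold changes of 0.49 ± 0.051 and 0.56 ± 0.043. The hemidesmosome components ITGB4, the partner of integrin alpha 6, and COL17A1, a transmembrane collagen, rose by log2 fold changes of 0.399 ± 0.038 and 1.502 ± 0.18. COL7A1, the anchoring-fibril collagen, had 502, 490.2 and 502 CPM in irradiated cells, against 209, 205 and 289 CPM in sham cells. The groups did not overlap, sham replicate 3 was the highest of the sham libraries, and the test gave a log2 fold change of 1.07 ± 0.16 (SE; edgeR, adjusted p = 0.0104). Perlecan (HSPG2), the heparan sulfate proteoglycan of basement membranes, had 537, 549.7 and 552 CPM in irradiated cells, against 344, 359 and 342 CPM in sham cells, with a log2 fold change of 0.63 ± 0.039 (SE; edgeR, adjusted p = 3.14e-13). The irradiated values all exceeded the sham values. The arginine-glycine-aspartate protein osteopontin (SPP1) and the microfibril protein FBN2 rose by log2 fold changes of 0.72 ± 0.04 and 0.995 ± 0.079. Of 28 genes of collagens and collagen processing tested, 17 were higher and 5 lower. In the fit to all 12 libraries 11 were higher and 3 lower.

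Enzymes that cut, cross-link or remodel the matrix changed with it. Of 27 matrix proteases and inhibitors tested, 13 rose and 1 fell. Matrilysin (MMP7, chr11:102520508-102530753), an epithelial metalloproteinase, had 82.1, 77.7 and 89.9 CPM in irradiated cells, against 28.2, 26.98 and 29.2 CPM in sham cells. That was a rise in every irradiated library over every sham library, with a log2 fold change of 1.55 ± 0.066 (SE; edgeR, adjusted p = 1.08e-16). TIMP2, a tissue inhibitor of metalloproteinases, averaged 208 ± 5.63 CPM in irradiated cells and 125 ± 5.68 CPM in sham cells (SD, n = 3 each), a log2 fold change of 0.72 ± 0.045. BMP1, which trims procollagens, and LTBP2, a latent TGF-beta-binding protein of microfibrils, rose by log2 fold changes of 0.85 ± 0.05 and 0.73 ± 0.047. Transglutaminase 2 (TGM2, chr20:38127387-38166578), which cross-links proteins, was among the 5 largest gains in CPM, with 2707, 2831 and 2680.5 CPM in irradiated cells, against 1647, 1666 and 1524 CPM in sham cells. The endosulfatase SULF2 (chr20:47656348-47786616), which edits heparan sulfate outside the cell, had 98.2, 98.4 and 100.1 CPM in irradiated cells, against 35.5, 37.6 and 30.7 CPM in sham cells. Neither gene showed overlapping groups, and edgeR gave log2 fold changes of 0.75 ± 0.039 (adjusted p = 8.05e-15) for TGM2 and 1.5 ± 0.062 (adjusted p = 6.33e-17) for SULF2. SULF2 overlaps the more abundant gene NCOA3 on the opposite strand, and whether counting used the strand is not given.

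Lysosomal genes rose moderately and in number. Of 51 lysosome and autophagy genes tested, 28 were higher and none was lower, 5 passed 1.5-fold, and their median log2 fold change was 0.23. The sphingolipid activator precursor PSAP (chr10:71816298-71851375) had 2417, 2452 and 2564 CPM in irradiated cells, against 1619, 1633 and 1654 CPM in sham cells, and the cysteine protease CTSB had 886, 908 and 917 CPM in irradiated cells, against 594, 598 and 560.0 CPM in sham cells. Cathepsin S (CTSS), which in immune cells trims the MHC class II invariant chain, had 45.6, 43.1 and 44.2 CPM in irradiated cells, against 16.7, 14.8 and 16.3 CPM in sham cells. CTSS was listed with the MHC presentation genes, of which 22 were tested, 10 rose and 1 fell. PSAP, CTSB and CTSS had no overlap between groups. Their log2 fold changes were 0.58 ± 0.037, 0.61 ± 0.038 and 1.45 ± 0.08 (edgeR, adjusted p = 5.97e-13, 3.7e-13 and 2.47e-14). The aspartic protease CTSD, the lipid transfer protein ATG2A and the proton pump subunit ATP6V0D1 rose by log2 fold changes of 0.49 ± 0.05, 0.78 ± 0.059 and 0.602 ± 0.057. TFEB and TFE3, the factors known to drive lysosomal genes, did not pass the test at log2 fold changes of -0.034 ± 0.15 and -0.029 ± 0.05, nor did the autophagy receptor SQSTM1 at 0.0071 ± 0.038. RNA levels do not measure the activity of TFEB and TFE3, which was not tested.

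Sterol genes rose more often than they fell. Of 32 such genes tested, 20 rose and 5 fell. ABCA1, the cholesterol exporter, had 58.6, 55.5 and 57.4 CPM in irradiated cells, against 28.1, 25.8 and 25.3 CPM in sham cells. The epidermal lipid transporter ABCA12 (chr2:214931542-215138428) had 27.7, 30.9 and 29.7 CPM in irradiated cells, against 7.22, 9.14 and 7.25 CPM in sham cells. Each rise was larger than the spread between libraries, with a log2 fold change of 1.096 ± 0.068 (SE; edgeR, adjusted p = 3.14e-13) for ABCA1 and a log2 fold change of 1.89 ± 0.11 (SE; edgeR, adjusted p = 4.08e-14) for ABCA12. The sterol oxidase gene MSMO1, of cholesterol synthesis, rose by a log2 fold change of 0.54 ± 0.052. Of 28 ABC transporters tested, 13 rose and 2 fell; the cholesterol exporter ABCG1 was 1 of the 2, at -0.28 ± 0.061.

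Iron genes and detoxifying enzymes changed member by member. Of 29 genes of iron, copper and zinc handling tested, 12 rose and 3 fell. The cytosolic aconitase ACO1, which also acts as an iron sensor, averaged 236 ± 7.86 CPM in irradiated cells and 141 ± 3.98 CPM in sham cells (SD, n = 3 each), and the iron exporter SLC40A1 averaged 17.2 ± 3.05 CPM in irradiated cells and 9.504 ± 0.917 CPM in sham cells (SD, n = 3 each). They rose by log2 fold changes of 0.73 ± 0.043 and 0.84 ± 0.13. FDXR (chr17:74862497-74873031), a mitochondrial reductase and known p53 target, had 88.9, 82.4 and 85.4 CPM in irradiated cells, against 21.9, 21.7 and 23.5 CPM in sham cells and a log2 fold change of 1.92 ± 0.064 (SE; edgeR, adjusted p = 7.17e-19). Its groups were far apart relative to their spread. Among 41 xenobiotic enzymes tested, 15 rose and 7 fell, and the 7 became 3 in the fit to all 12 libraries. ALDH3A1 (chr17:19737984-19748943), an aldehyde dehydrogenase of cornea and airway, had 1058, 1057 and 923 CPM in irradiated cells, against 364, 369.9 and 344 CPM in sham cells, and AKR1B1 (chr7:134442350-134459284), the aldose reductase, had 3064, 2984 and 2905 CPM in irradiated cells, against 1577, 1599 and 1675 CPM in sham cells. Neither gene had overlapping groups, and the log2 fold changes were 1.48 ± 0.048 and 0.87 ± 0.039 (edgeR, adjusted p = 2.65e-16 and 2.77e-16). CYP3A5, a drug-oxidising P450, rose by a log2 fold change of 0.98 ± 0.101, and the glutathione peroxidases GPX1 and GPX3 rose by log2 fold changes of 0.85 ± 0.045 and 0.87 ± 0.16. The vitamin D enzymes fell: CYP24A1 (chr20:54153449-54173973), which inactivates vitamin D and was among the 5 largest losses in CPM, had 2998, 3029.6 and 3177 CPM in irradiated cells, against 3805, 3772 and 3776 CPM in sham cells, a log2 fold change of -0.32 ± 0.036, and CYP27B1, which activates it, fell, at a log2 fold change of -0.65 ± 0.18. DHRS2, a short-chain dehydrogenase, showed the largest fall among the protein-coding genes named by rule, to 1.74 ± 0.643 CPM in irradiated cells and 9.77 ± 1.45 CPM in sham cells (SD, n = 3 each). The AKR1C genes are near-identical copies of each other, and ALDH3A1 overlaps the antisense gene AC005722.3.

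Genes of the actin cytoskeleton rose more often than they fell. Of 39 actin cytoskeleton genes tested, 21 rose and 3 fell. ACTA2 (chr10:88935074-88991339), the smooth-muscle actin, had 21.5, 23.7 and 23.3 CPM in irradiated cells, against 5.902, 5.26 and 5.39 CPM in sham cells, with no overlap and a log2 fold change of 2.03 ± 0.12 (SE; edgeR, adjusted p = 5.92e-14). ACTA2 overlaps FAS on the opposite strand, and FAS is a known p53 target, so reads of the 2 genes cannot be told apart where counting ignored the strand. PDLIM7, which tethers kinases to actin filaments, rose by a log2 fold change of 0.75 ± 0.062. Of 7 keratin genes tested, 3 rose and 2 fell, none by 1.5-fold. KRT8 (chr12:52897187-52949954) and KRT18, the keratin pair of simple epithelia, averaged 3778 ± 143 CPM in irradiated cells and 2520.2 ± 69.6 CPM in sham cells for KRT8 and 2142 ± 93.8 CPM in irradiated cells and 1595 ± 78.95 CPM in sham cells for KRT18 (SD, n = 3 each). Their log2 fold changes were 0.57 ± 0.038 and 0.41 ± 0.04. The 2 keratin genes overlap each other in the authors' annotation, and KRT8 has many processed copies. FLG (chr1:152302175-152325203), which encodes the epidermal barrier protein filaggrin, had 6.22, 7.604 and 6.55 CPM in irradiated cells, against 0.753, 1.44 and 1.52 CPM in sham cells, a rise of 2.42 ± 0.23 at a level of few reads, and overlaps FLG-AS1.

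Several receptors and enzymes of local signalling were among the largest rises. ALOX5 (chr10:45374176-45446119), the enzyme that opens leukotriene synthesis and is mostly known from myeloid cells, had 7.63, 8.84 and 7.85 CPM in irradiated cells, against 1.44, 2.63 and 2.19 CPM in sham cells. PTAFR (chr1:28147166-28193936), the receptor for platelet-activating factor, had 3.603, 3.57 and 4.07 CPM in irradiated cells, against 1.005, 0.626 and 0.506 CPM in sham cells. UCN2 (chr3:48561727-48563773), a peptide of the corticotropin-releasing factor family, had 6.5, 6.56 and 7.03 CPM in irradiated cells, against 1.44, 1.88 and 1.63 CPM in sham cells. Every irradiated value of the 3 genes exceeded every sham value, and their log2 fold changes were 1.93 ± 0.2, 2.38 ± 0.301 and 1.999 ± 0.21 (edgeR, adjusted p = 1.05e-08, 3.94e-07 and 9.27e-09). The globin CYGB (chr17:76527356-76551175), which binds oxygen and nitric oxide in many cell types, showed the largest rise of all protein-coding genes named by rule, with 7.49, 8.19 and 7.08 CPM in irradiated cells, against 0.879, 0.939 and 0.7303 CPM in sham cells. CYFIP2 (chr5:157266079-157395595), a subunit of the actin-regulating WAVE complex, had 151, 149.9 and 152 CPM in irradiated cells, against 57.5, 58.3 and 51.8 CPM in sham cells, and gave the smallest p of the genes described in this paragraph, with a log2 fold change of 1.42 ± 0.05 (SE; edgeR, adjusted p = 2.26e-18). The semaphorin receptor PLXNB3 (chrX:153764196-153779346), the immunoglobulin joining chain gene JCHAIN (chr4:70655541-70681817), the potassium channel gene KCNQ3 and the thrombospondin-repeat gene THSD1 (chr13:52377167-52416373) rose by log2 fold changes of 1.97 ± 0.21, 1.99 ± 0.31, 2.07 ± 0.24 and 1.88 ± 0.14. The p53 target SPATA18, which acts in mitochondrial quality control, rose by a log2 fold change of 2.17 ± 0.15. THSD1, PLXNB3 and UCN2 each overlap an expressed gene on the same strand (VPS36, SRPK3 and PFKFB4), and CYGB and CYFIP2 one on the opposite strand (PRCD and ADAM19), so part of their reads may belong to the neighbour.

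Promoters of 4 genes are printed because they carry, in the letters just before the gene start, the element known for each of 4 gene groups that moved here: the NF-kB site for chemokines, the interferon response element for interferon-stimulated genes, the cell-cycle homology region for mitotic genes and the E box for clock genes. Each is the 250 bases before the gene start on the coding strand, 5′ to 3′, from RefSeq promoters of GRCh38.p14, with the element in capitals. CXCL1 lies at chr4:73869143-73869392 and IFIT3 at chr10:89327747-89327996, both on the plus strand, KIF11 at chr10:92592880-92593129 on the plus strand and PER1 at chr17:8152405-8152654 on the minus strand.
CXCL1 promoter: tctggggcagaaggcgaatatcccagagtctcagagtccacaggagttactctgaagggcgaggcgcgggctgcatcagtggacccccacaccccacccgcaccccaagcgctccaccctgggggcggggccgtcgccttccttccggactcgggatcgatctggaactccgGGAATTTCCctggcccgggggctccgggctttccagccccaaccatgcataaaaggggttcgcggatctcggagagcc
IFIT3 promoter: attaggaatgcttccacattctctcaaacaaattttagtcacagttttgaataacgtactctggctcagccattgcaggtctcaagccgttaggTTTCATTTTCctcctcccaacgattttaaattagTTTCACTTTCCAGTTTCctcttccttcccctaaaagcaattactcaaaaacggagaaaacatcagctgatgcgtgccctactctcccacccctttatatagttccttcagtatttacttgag
KIF11 promoter: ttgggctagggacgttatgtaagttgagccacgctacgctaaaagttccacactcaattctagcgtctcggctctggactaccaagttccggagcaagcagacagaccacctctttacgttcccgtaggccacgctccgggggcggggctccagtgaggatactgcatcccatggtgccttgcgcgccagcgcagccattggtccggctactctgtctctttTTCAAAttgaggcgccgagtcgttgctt
PER1 promoter: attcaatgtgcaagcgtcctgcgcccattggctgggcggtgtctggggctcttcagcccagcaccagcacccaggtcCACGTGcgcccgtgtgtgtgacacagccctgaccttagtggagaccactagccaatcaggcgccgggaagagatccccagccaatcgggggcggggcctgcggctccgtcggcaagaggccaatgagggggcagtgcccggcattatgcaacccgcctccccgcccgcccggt

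The capitals begin at position -78 from the gene start in CXCL1, at -156 and -122 in IFIT3, at -28 in KIF11 and at -173 in PER1. Motifs were searched on both strands over the 250 bases before and 50 bases after the start of the 10726 protein-coding genes with a RefSeq promoter, 80.7% of those tested. The NF-kB site was searched as GGAATTTCC or GGACTTTCC and stood in 0.774% of all promoters. The interferon response element, searched as GAAA followed after 2 or 3 further bases by GAAA, stood in 24 of 34 promoters of interferon-stimulated genes (70.6%) and in 4.63% of all. The cell-cycle homology region, TTTGAA, stood in 17 of 25 promoters of mitosis genes (68%) and in 9.66% of all, and the CCAAT box in 21 of the same 25 (84%) and in 36.2% of all. The E box, CACGTG, which reads the same on both strands, stood in 4 of 19 clock promoters (21.1%) and in 9.99% of all. Fewer than 80% of the chemokine genes and of the genes changed by at least 1.5-fold had a promoter in the table, so no share is given for them. A match is a run of letters and was not tested for binding.

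CXCL1, a neutrophil-attracting chemokine, had 253, 255 and 270.2 CPM in irradiated cells, against 107, 124 and 119 CPM in sham cells, and IFIT3, an interferon-induced inhibitor of viral RNA translation, had 11.7, 8.51 and 9.98 CPM in irradiated cells, against 4.52, 4.19 and 6.12 CPM in sham cells. Both rose without overlap, with log2 fold changes of 1.14 ± 0.05 and 0.99 ± 0.17. KIF11, the motor that separates spindle poles, had 17.03, 19.95 and 14.8 CPM in irradiated cells, against 44.3, 44.8 and 33.5 CPM in sham cells, and PER1, a repressor of the circadian clock, had 14.5, 13.3 and 15.2 CPM in irradiated cells, against 26.4, 27.2 and 28.8 CPM in sham cells. Both fell without overlap, with log2 fold changes of -1.26 ± 0.13 and -0.95 ± 0.092 (edgeR, adjusted p = 6.24e-06 and 2.73e-09). Of 36 chemokine, interleukin and receptor genes tested, 16 rose and 4 fell, and of 42 interferon-stimulated genes 21 rose and 1 fell. Of 30 genes of mitosis and G2/M, 24 fell and none rose.

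**Figure D3:**
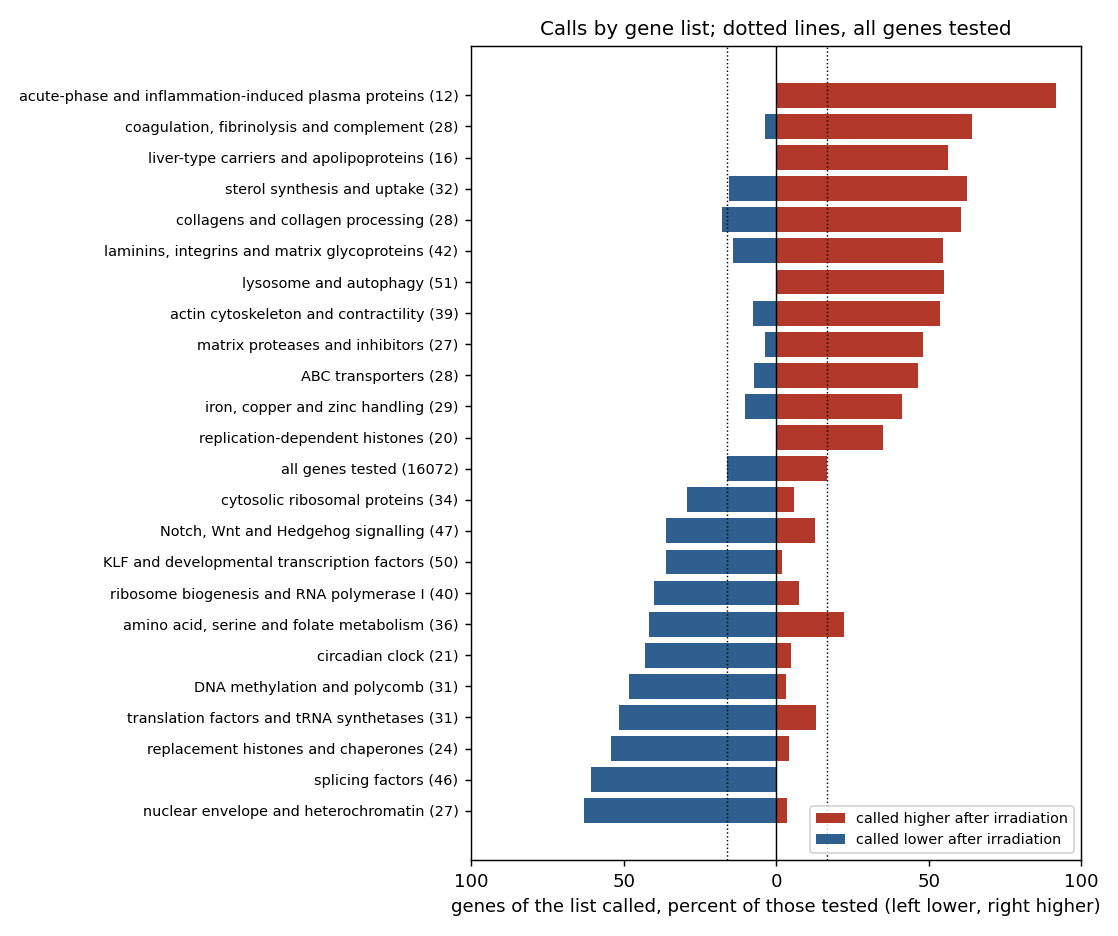
Members of 23 gene lists, with all tested genes as dotted lines and as a bar of their own: each bar gives the percent of tested members called higher (to the right) or lower (to the left) in irradiated against sham cells at an adjusted p below 0.05. Over all genes tested 16.5% were higher and 16% lower; 11 of 12 acute-phase genes were higher and 28 of 46 splicing factor genes lower.

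Genes of amino acid, serine and folate metabolism changed in both directions, and the changes of at least 1.5-fold were mostly falls. Of 36 tested, 15 fell, 9 of them by at least 1.5-fold, and 8 rose, 1 of them by at least 1.5-fold, and the median log2 fold change was -0.024. PHGDH (chr1:119648411-119744226), which commits glycolytic carbon to serine, had 43.4, 44.7 and 45.9 CPM in irradiated cells, against 121, 118 and 117 CPM in sham cells. This was a separation of all libraries, with a log2 fold change of -1.42 ± 0.052 (SE; edgeR, adjusted p = 3.28e-18). PSAT1, the next enzyme, averaged 175 ± 10.2 CPM in irradiated cells and 279 ± 16.4 CPM in sham cells (SD, n = 3 each), and the mitochondrial folate enzyme MTHFD2 averaged 166 ± 3.56 CPM in irradiated cells and 265 ± 14.1 CPM in sham cells (SD, n = 3 each). They fell, at log2 fold changes of -0.69 ± 0.048 and -0.69 ± 0.044, whereas PSPH and SHMT2, which act between them, did not pass the test at -0.11 ± 0.063 and 0.01 ± 0.047. Asparagine synthetase (ASNS), the transsulfuration enzyme CTH and the branched-chain transaminase BCAT1 fell, at log2 fold changes of -1.13 ± 0.16, -0.69 ± 0.068 and -0.61 ± 0.077. GLDC, which breaks glycine down in mitochondria, went the other way, with 35.1, 36.5 and 38.2 CPM in irradiated cells, against 14.2, 16.5 and 12.1 CPM in sham cells and a log2 fold change of 1.35 ± 0.094.

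Genes of ATF4, the factor of the amino acid response, and of the unfolded protein response were mixed: of 29 tested, 8 rose and 8 fell, with a median log2 fold change of 0.036. The pseudokinase TRIB3 (chr20:362835-397559), which restrains AKT and ATF4, had 169, 176 and 163 CPM in irradiated cells, against 361, 346 and 299 CPM in sham cells, and INHBE, a hepatokine of the activin family, averaged 2.93 ± 0.0947 CPM in irradiated cells and 6.05 ± 0.8697 CPM in sham cells (SD, n = 3 each). The log2 fold changes were -1.003 ± 0.054 and -1.06 ± 0.19 (edgeR, adjusted p = 1.8e-11 and 6.89e-05), and neither gene had overlapping groups. Among tRNA synthetases, AARS, MARS and IARS fell, at log2 fold changes of -0.61 ± 0.039, -0.56 ± 0.04 and -0.48 ± 0.042, while RARS and QARS rose by log2 fold changes of 0.29 ± 0.055 and 0.3 ± 0.043. The transporters SLC38A2 (chr12:46358189-46372867), which brings in neutral amino acids and was among the 5 largest losses in CPM, and SLC2A3 (chr12:7919230-7936275), a high-affinity glucose transporter, had 884, 866 and 916 CPM in irradiated cells, against 1346, 1326 and 1242 CPM in sham cells for SLC38A2 and 121, 119.9 and 109 CPM in irradiated cells, against 284, 279 and 221 CPM in sham cells for SLC2A3. Log2 fold changes were -0.57 ± 0.039 and -1.18 ± 0.102; for SLC2A3 the irradiated libraries lay close together, and sham replicate 3 was the lowest of the sham libraries. The NK-cell ligand gene ULBP1, which ATF4 also drives, fell to 9.07 ± 0.997 CPM in irradiated cells, against 21.7 ± 2.85 CPM in sham cells (SD, n = 3 each).

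Genes for transcription factors fell more often than they rose. By the family column of the authors' table, 84 of 1073 transcription factor genes tested (7.83%) were higher and 241 (22.5%) lower, while of 12223 protein-coding genes with no family given 19.8% were higher and 17.7% lower. By family, 20 of 54 bHLH genes, 14 of 36 HMG genes, 11 of 30 forkhead genes and 8 of 20 MYB genes fell. Of 443 C2H2 zinc-finger genes, 16 (3.61%) were higher and 68 (15.3%) lower, beside 16.5% and 16% over all genes tested. The ID genes, which encode inhibitors of bHLH factors and are induced by BMP signals, fell together: ID4 (chr6:19837386-19840684) had 36.2, 39.5 and 46.1 CPM in irradiated cells, against 89.3, 91.3 and 93.98 CPM in sham cells, and ID1, ID2 and ID3 gave log2 fold changes of -0.32 ± 0.047, -0.61 ± 0.11 and -0.46 ± 0.042. ID4 itself gave a log2 fold change of -1.19 ± 0.067 (SE; edgeR, adjusted p = 6.59e-13). Of 31 genes of TGF-beta, activin and BMP signalling, 14 rose and 9 fell, with 0.11 as the median log2 fold change. SMAD6 and NOG, which restrain BMP signalling, fell, at log2 fold changes of -0.48 ± 0.048 and -1.28 ± 0.24, and the type I BMP receptor genes BMPR1A and BMPR1B fell, at log2 fold changes of -0.34 ± 0.065 and -0.46 ± 0.064. The ligand gene BMP2 rose by a log2 fold change of 0.42 ± 0.082. BMP1 and LTBP2, given above and members of the same list, rose by log2 fold changes of 0.85 ± 0.05 and 0.73 ± 0.047. The falling members named here do not stand for the list, in which rises outnumbered falls.

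Of 50 KLF and developmental transcription factor genes tested, 18 fell and 1 rose. KLF2, a factor of quiescent endothelium and lymphocytes that epithelial cells also express, had 13.9, 15.99 and 16.9 CPM in irradiated cells, against 29.01, 28.9 and 29.3 CPM in sham cells, and KLF11 averaged 19.7 ± 1.61 CPM in irradiated cells and 29.2 ± 2.73 CPM in sham cells (SD, n = 3 each). They fell, at log2 fold changes of -0.91 ± 0.09 and -0.58 ± 0.09, and the orphan nuclear receptor gene NR4A2 (chr2:156324432-156342348), with 35.2, 39.1 and 38.5 CPM in irradiated cells, against 73.4, 79.7 and 67.1 CPM in sham cells, fell, at a log2 fold change of -0.98 ± 0.066. None of the 3 genes had overlapping groups. The Hedgehog effector GLI1 and the Hedgehog receptor PTCH1, both induced by the pathway, fell, at log2 fold changes of -0.74 ± 0.083 and -0.71 ± 0.11. Among other falls of at least 2-fold named by rule were AKNA (chr9:114334156-114394405), an AT-hook protein of centrosomes, RCOR2 (chr11:63911221-63916844), a corepressor, and NDUFA4L2 (chr12:57234903-57240715), a hypoxia-induced mitochondrial protein, with -1.52 ± 0.195, -1.44 ± 0.304 and -1.44 ± 0.25. NDUFA4L2 overlaps the far more abundant SHMT2 on the opposite strand.

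Circadian period genes fell, the calls of the output genes DBP and TEF were unstable, and the core activators did not pass the test. Of 21 clock genes tested, 9 fell and 1 rose, and 3 fell by at least 1.5-fold, and their median log2 fold change was -0.34. The period genes PER1, PER2 and PER3 fell, at log2 fold changes of -0.95 ± 0.092, -0.401 ± 0.064 and -0.63 ± 0.14. The repressors NR1D1 and NR1D2 fell, at log2 fold changes of -0.34 ± 0.097 and -0.398 ± 0.057, and the PAR-bZIP output genes DBP and TEF and their antagonist NFIL3 fell, at -0.596 ± 0.18, -0.404 ± 0.14 and -0.52 ± 0.093. ARNTL and CLOCK, the activating pair, gave 0.066 ± 0.11 and 0.032 ± 0.076, and the cryptochrome gene CRY2 gave 0.0097 ± 0.11. The calls of NR1D1 and TEF were lost in the fit to all 12 libraries. Of the 13 alternatives, TEF lost its call in 7, DESeq2 among them, and NR1D1 in 2. DBP lost its call in 4, each with a single library left out. The 3 irradiated values of DBP, 9.25, 11.1 and 16.8 CPM, were spread wider than its sham values of 18.1, 18 and 19.8 CPM. No clock hour of harvest is given for either group, and the harvest time of the sham cells has no entry. A shift in phase and a change in level therefore cannot be told apart.

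Histone genes split by class. Of 39 replication-dependent histone genes listed, whose messages normally end in a stem loop and not a poly(A) tail, 20 were tested; 7 rose, 4 of them by at least 1.5-fold, and none fell. HIST1H2AC had 29.8, 32.6 and 29.9 CPM in irradiated cells, against 17.8, 15.5 and 19.2 CPM in sham cells, and HIST1H2BK and HIST2H2BE averaged 32.03 ± 0.771 CPM in irradiated cells and 21.2 ± 0.662 CPM in sham cells for HIST1H2BK and 6.87 ± 0.565 CPM in irradiated cells and 3.72 ± 0.193 CPM in sham cells for HIST2H2BE (SD, n = 3 each). The log2 fold changes of HIST1H2AC, HIST1H2BK, HIST2H2BE, HIST1H1C and HIST1H3H were 0.79 ± 0.091, 0.58 ± 0.079, 0.87 ± 0.17, 0.58 ± 0.11 and 1.12 ± 0.27. The libraries were made from poly(A) RNA, so these values count polyadenylated histone messages only, and the genes share much of their coding sequence. Of 24 replacement histone and histone chaperone genes, 13 fell and 1 rose. H1F0, the linker histone of non-dividing cells, had 155, 165 and 170.1 CPM in irradiated cells, against 286, 299.6 and 278 CPM in sham cells, with a log2 fold change of -0.84 ± 0.044 (SE; edgeR, adjusted p = 1.25e-14) and no overlap. H2AFZ, a replacement histone found at promoters, fell, at a log2 fold change of -0.44 ± 0.047, and the replication-linked chaperone genes CHAF1A and ASF1B fell, at log2 fold changes of -0.99 ± 0.14 and -0.78 ± 0.18.

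**Figure D4:**
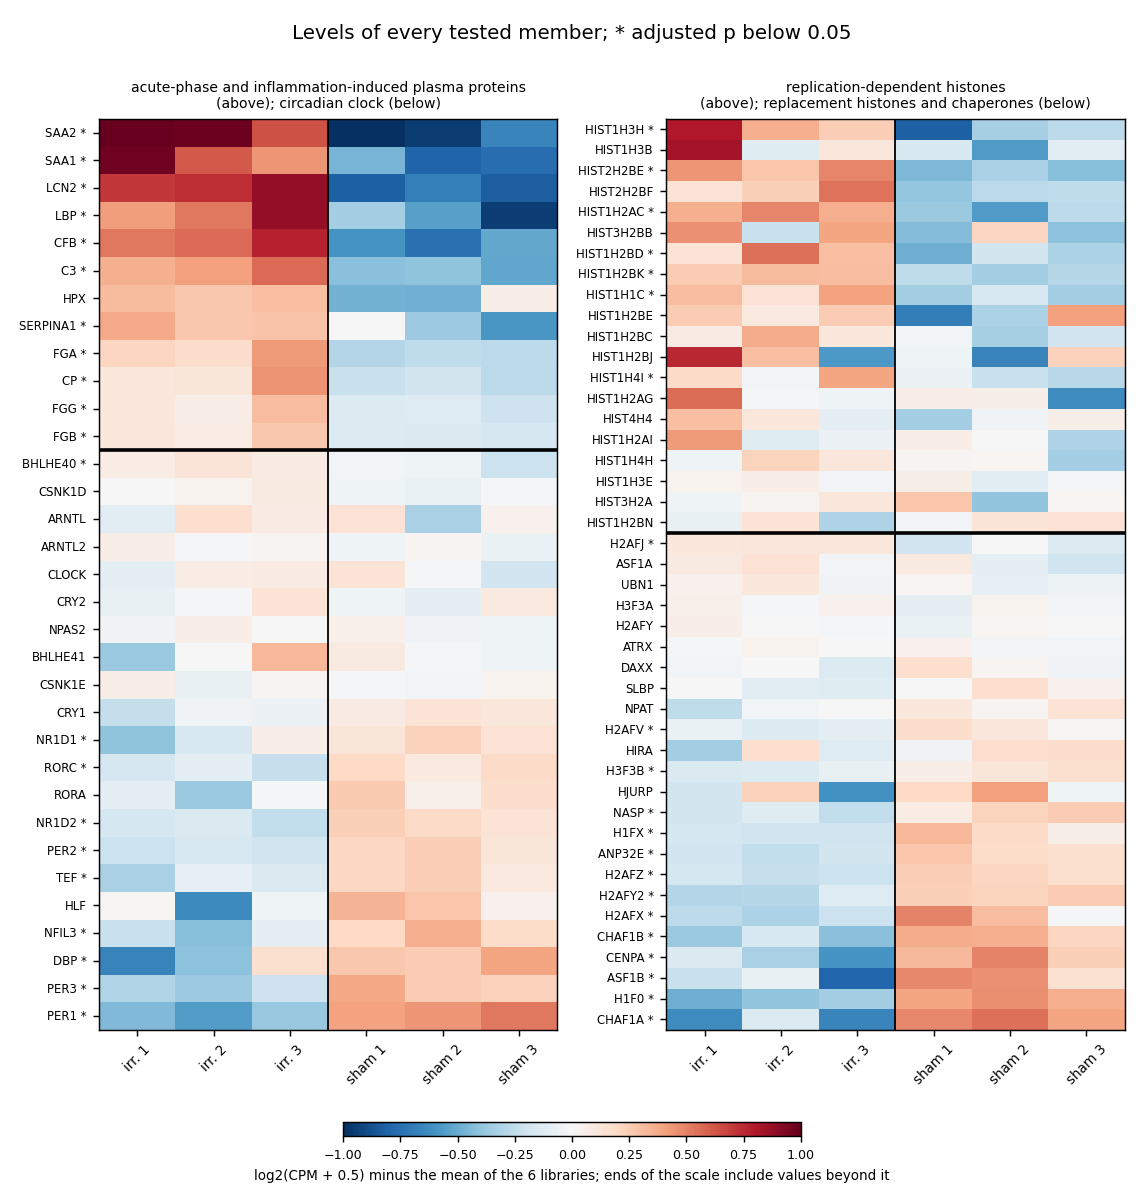
Level of every tested member of 4 gene lists in each of the 6 libraries, as log2(CPM + 0.5) minus the mean of that gene over the 6 libraries; the 3 irradiated libraries are the left columns and the 3 sham libraries the right columns of each panel, the colour scale ends at 1 and -1, and an asterisk marks an adjusted p below 0.05. Acute-phase and replication-dependent histone genes are mostly higher in the irradiated libraries, clock and replacement histone genes mostly lower.

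Nuclear structure and chromatin genes fell. Of 27 nuclear envelope and heterochromatin genes tested, 17 fell, 6 of them by at least 1.5-fold, and 1 rose. LMNB1 had 10.03, 11.5 and 11.98 CPM in irradiated cells, against 25.2, 31.7 and 26.6 CPM in sham cells, the chromatin protein gene HMGB2 had 15.5, 14.9 and 14.5 CPM in irradiated cells, against 31.1, 30.9 and 30.6 CPM in sham cells, and TMPO, whose products bind lamins, had 104, 103 and 90.7 CPM in irradiated cells, against 181, 172 and 153 CPM in sham cells. In each gene the irradiated values lay below every sham value, and the log2 fold changes were -1.33 ± 0.104, -1.06 ± 0.085 and -0.78 ± 0.059 (edgeR, adjusted p = 4.29e-11, 7.13e-11 and 2.58e-09). The lamin B receptor gene LBR and the H3K9 methyltransferase gene SUV39H1 fell, at log2 fold changes of -0.502 ± 0.058 and -0.61 ± 0.17, and LMNB2 did not pass the test at -0.13 ± 0.062. Of 31 DNA methylation and polycomb genes, 15 fell and 1 rose. UHRF1, which brings DNMT1 to replicated DNA, EZH2, the H3K27 methyltransferase, and DNMT1 fell, at log2 fold changes of -0.799 ± 0.097, -0.67 ± 0.098 and -0.38 ± 0.057, while the de novo methyltransferase gene DNMT3B was the 1 that rose, with 26.6, 30.9 and 25.8 CPM in irradiated cells, against 21.5, 20.2 and 20.7 CPM in sham cells, a log2 fold change of 0.398 ± 0.088. In a bulk sample fewer dividing cells and less RNA per cell cannot be told apart for any gene given here.

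Splicing factor genes fell. Of 46 splicing factor genes tested, 28 fell and none rose, and their median log2 fold change was -0.25, and 4 fell by at least 1.5-fold. SRSF3, an SR protein of exon recognition and export, had 109.9, 109.8 and 124 CPM in irradiated cells, against 183, 195 and 177 CPM in sham cells. HNRNPA1, an abundant splicing repressor, had 577, 569.9 and 626 CPM in irradiated cells, against 822, 896 and 885 CPM in sham cells. SRSF7 and the U1 snRNP protein gene SNRPA averaged 76.9 ± 6.29 CPM in irradiated cells and 116 ± 2.96 CPM in sham cells for SRSF7 and 37.04 ± 3.9 CPM in irradiated cells and 62.4 ± 4.49 CPM in sham cells for SNRPA (SD, n = 3 each). No gene of the 4 had overlapping groups, and the log2 fold changes were -0.71 ± 0.05, -0.57 ± 0.043, -0.604 ± 0.053 and -0.77 ± 0.071 (edgeR, adjusted p = 8.81e-12, 3.16e-11, 5.47e-10 and 2.22e-09). SF3B1 and SF3A1, subunits of the U2 snRNP, did not pass the test at 0.0049 ± 0.044 and -0.093 ± 0.047.

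Of 40 genes of ribosome biogenesis and RNA polymerase I, 16 fell and 3 rose. The nucleolar proteins NPM1 (chr5:171387116-171411137) and FBL had 586, 597 and 602 CPM in irradiated cells, against 858, 909 and 886 CPM in sham cells for NPM1 and 147, 138 and 146 CPM in irradiated cells, against 203, 218 and 220.4 CPM in sham cells for FBL. UBTF, which opens rRNA genes for RNA polymerase I, averaged 101 ± 5.04 CPM in irradiated cells and 142 ± 4.91 CPM in sham cells (SD, n = 3 each). The groups did not overlap, and the log2 fold changes were -0.59 ± 0.038, -0.59 ± 0.046 and -0.52 ± 0.049. EIF1 (chr17:41688885-41692668), the start-codon scanning factor, was among the 5 largest losses in CPM, with 518, 527 and 577 CPM in irradiated cells, against 878, 899 and 869 CPM in sham cells and a log2 fold change of -0.72 ± 0.041 (SE; edgeR, adjusted p = 5.43e-14). Of 22 snoRNA host transcripts, 11 fell and 3 rose, and the 11 became 4 in the fit to all 12 libraries. SNHG1 fell to 68.3 ± 2.01 CPM in irradiated cells, against 109 ± 9.33 CPM in sham cells (SD, n = 3 each), a log2 fold change of -0.69 ± 0.056.

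Among other non-coding genes, those with the largest rises at a mean of at least 1 CPM were GAS6-AS1 (chr13:113815630-113845744), AC005722.3, AL158206.1 (chr9:19453209-19455173), LNCTAM34A (chr1:9182004-9196284) and AP001453.2. GAS6-AS1 had 19.1, 17.9 and 18.1 CPM in irradiated cells, against 2.7, 2.94 and 3.595 CPM in sham cells, with no overlap and a log2 fold change of 2.55 ± 0.14 (SE; edgeR, adjusted p = 3.57e-14). The others rose by log2 fold changes of 2.196 ± 0.42, 2.15 ± 0.23, 1.796 ± 0.32 and 1.79 ± 0.38. The largest falls were those of AC022733.2, SNHG19, DLEU2, AC015712.6 and SPATA41, by -1.57 ± 0.38, -1.42 ± 0.33, -1.38 ± 0.39, -1.32 ± 0.28 and -1.27 ± 0.34. SNHG19 had 7.63, 8.71 and 10.9 CPM in irradiated cells, against 17.8, 20.97 and 33.4 CPM in sham cells, with sham replicate 3 the highest. Its call was lost without sham replicate 2 or without any 1 of the irradiated libraries (edgeR, adjusted p = 0.0611 to 0.115). DLEU2 overlaps TRIM13 and GAS6-AS1 overlaps GAS6 on the opposite strand. AC005722.3 (mean over the 6 libraries 1.82 CPM), LNCTAM34A (1.64 CPM) and AP001453.2 (1.44 CPM) also overlap more abundant genes on the opposite strand. These are ALDH3A1 (686 CPM), MIR34AHG (12.1 CPM) and PPP1R14B (95.5 CPM). Where counting ignored the strand, part of the reads of these non-coding genes may belong to the neighbour.

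The same comparison in shTRIM22 cells, which shares no library with this one, was set beside it. The 673 genes that rose by at least 1.5-fold in shControl cells had a median log2 fold change of 0.89 there, a value set by the choice of genes, and of 0.66 in shTRIM22 cells, where 635 were on the higher side and 38 on the lower. The 604 that fell had medians of -0.82 and, in shTRIM22 cells, of -0.68, with 535 on the lower side and 69 on the higher. The difference between the responses, tested as an interaction over all 12 libraries, passed for 276 of 17094 genes (1.61%), and for 1185 of 17500 (6.77%) without shTRIM22 sham replicate 3, in which mitochondrially encoded genes took 2.67% of the reads. That count was 915 without shTRIM22 sham replicate 2, 212 without shTRIM22 sham replicate 1, and 111 to 138 without any 1 of the shControl or of the irradiated shTRIM22 libraries. Of the 673 risers 68 passed this test, and 130 without that library; of the 604 fallers 11 and 52 passed. PHGDH, ABCA1, ABCA12, PER1, EIF1 and FBL did not pass it, with log2 fold changes in shTRIM22 cells of -1.58, 1.105, 1.704, -0.92, -0.73 and -0.59, and interaction values of 0.17 ± 0.18, 0.0085 ± 0.13, 0.201 ± 0.28, -0.018 ± 0.14, 0.024 ± 0.088 and 0.02 ± 0.11 (SE). FDXR had a log2 fold change of 0.13 in shTRIM22 cells, and its interaction value of 1.81 ± 0.38 did not pass (edgeR, adjusted p = 0.052). Without shTRIM22 sham replicate 3 the interaction value of FDXR was 1.33 and passed (edgeR, adjusted p = 4.14e-14). VTN, SULF2, TIMP2 and HSPG2 rose more in shControl cells, by 1.09 ± 0.061, 1.5 ± 0.062, 0.72 ± 0.045 and 0.63 ± 0.039, than in shTRIM22 cells, where their log2 fold changes were 0.35, 0.61, 0.096 and 0.15 (edgeR interaction, adjusted p = 0.00121, 0.00479, 0.0031 and 0.00561). Their sham levels were higher with the TRIM22 hairpin, at 114, 71.0, 389 and 568 CPM, against 50.9, 34.6, 125 and 349 CPM in shControl cells. After irradiation they averaged 145, 109, 416 and 629 CPM in shTRIM22 cells and 109, 98.9, 208 and 546 CPM in shControl cells.

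**Figure D5:**
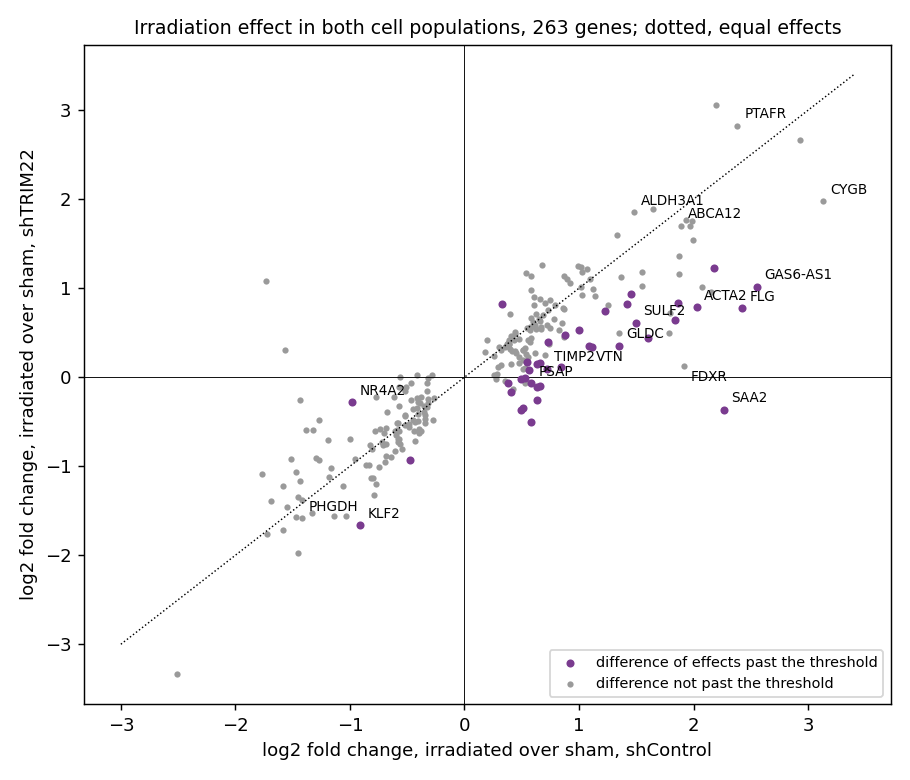
Log2 fold change on irradiation in shControl cells (horizontal axis) against that in shTRIM22 cells (vertical axis) for the 263 genes named by rule; purple points passed the interaction test over all 12 libraries and grey points did not. The dotted diagonal marks equal responses, and PHGDH lies near it while VTN and SULF2 lie below it; the genes were chosen on their shControl values, so their spread along the horizontal axis is by choice.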

How the data were processed

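Poly(A) RNA of A549 cells was sequenced, and the authors deposited 1 table of raw counts per gene for 12 libraries, with gene coordinates, biotypes and transcription factor families. The submitters' processing notes name hg38 and DESeq2 1.20.0; the sources used here do not give the aligner, the annotation release or whether counting used the strand. The table held 0 other per-sample columns. Genes were kept by edgeR's filterByExpr (minimum count 10), scaled by TMM and tested with edgeR 4.0.16 (quasi-likelihood F-test, robust, R 4.3.3) on the 6 shControl libraries, with Benjamini-Hochberg adjustment over all genes tested. The interaction was fitted to 12 libraries. SEs are the log2 fold change over the square root of F. DESeq2 1.42.0 and other settings were alternatives. The script was tested on simulated counts.

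The comparison described, the 57 gene lists and the tests were chosen with earlier results of these data known, so lists are counted and not tested as sets. Genes were named by rule, among genes called with groups that did not overlap and called also with 12 libraries: the 15 largest rises and falls at a mean of at least 2 CPM, the 8 at 50 CPM, 5 non-coding genes each way at 1 CPM, up to 4 per list by smallest p, and the 5 largest gains and losses in CPM. Those named that are no more than list members, including every gene that did not pass, were chosen after their values were seen. A few genes are not reported here. Counts of reads without molecular identifiers are not independent molecules.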

Additional observations from a re-analysis of the deposited data

Results flagged for a closer look

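For 24 of 181 genes named here the irradiation response differed between shControl and shTRIM22 cells by edgeR's interaction test over all 12 libraries. Over all genes in that test 276 of 17094 (1.61%) passed. Each value below is the shControl log2 fold change minus the shTRIM22 log2 fold change, with its SE. The 2 responses share no library, and the test took one spread from all groups. Genes were named for their shControl response or after values were seen, and the same shControl libraries enter this test. That choice favours differences with the larger change in shControl cells. A larger rise does not mean a higher level. SAA2 averaged 3.76 CPM in irradiated shControl cells and 6.3 CPM in irradiated shTRIM22 cells, with 0.757 and 8.1 CPM after sham irradiation.

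The serum amyloid genes SAA2 and SAA1 had the largest differences, and other secreted proteins had smaller ones. Over all 12 libraries the acute-phase genes LCN2, CFB and FGA did not pass (adjusted p = 0.294, 0.679 and 0.422 in edgeR). SAA2 differed by 2.65 ± 0.29 (adjusted p = 0.000147 in edgeR) and SAA1 by 2.204 ± 0.25, with log2 fold changes in shTRIM22 cells of -0.36 and -0.63. C3 differed by 0.41 ± 0.09, VTN by 0.75 ± 0.103, SERPINE2 by 0.496 ± 0.096 and TFPI2 by 0.51 ± 0.096. Among matrix genes, SULF2 differed by 0.903 ± 0.15, TIMP2 by 0.64 ± 0.097 and HSPG2 by 0.502 ± 0.084.

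Structural and lysosomal genes also differed. ACTA2 differed by 1.26 ± 0.16, CYFIP2 by 0.61 ± 0.093, KRT8 by 0.501 ± 0.11, KRT18 by 0.59 ± 0.13 and FLG by 1.66 ± 0.35. PSAP differed by 0.67 ± 0.15, with a log2 fold change of -0.068 in shTRIM22 cells, and CTSS by 0.54 ± 0.13. The antisense gene GAS6-AS1 differed by 1.55 ± 0.17 (adjusted p = 0.000135 in edgeR), and the p53 target SPATA18 by 0.97 ± 0.24.

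Enzymes and chaperones with a larger rise in shControl cells were GLDC, by 1.01 ± 0.15, GPX1, by 0.75 ± 0.15, ACO1, by 0.35 ± 0.077, and HSPA4L, by 0.79 ± 0.12. Falling genes differed in either direction. NR4A2 fell more in shControl cells, by -0.68 ± 0.11, while KLF2 fell less in shControl cells, by 0.77 ± 0.12, its log2 fold change in shTRIM22 cells being -1.67. All 24 differences also passed without shTRIM22 sham replicate 3, with adjusted p-values in edgeR from 1.02e-12 for SULF2 to 0.0118 for CTSS. That fit called 1185 genes against 276 with all libraries. Leaving out any 1 shControl or irradiated shTRIM22 library gave 111 to 138 calls, and whether the 24 passed there is not given here. With all libraries SPATA18, CTSS and PSAP lay near the threshold (edgeR interaction, adjusted p = 0.04995, 0.0450 and 0.0377).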

How the results depend on the processing

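The irradiation comparison called 5224 genes in the fit to the 6 shControl libraries. With all 12 libraries in one fit it called 3107, of which 1820 were higher and 1287 lower, and without shTRIM22 sham replicate 3 in that fit 5260. RLE size factors gave 5197 calls, DESeq2 3980, no filter on low counts 4965, and leaving mitochondrially encoded genes out 5246. Leaving out each replicate in turn gave 4180 to 5057 calls, 2191 to 2601 higher, 1912 to 2456 lower and 1140 to 1333 at 1.5-fold or more. The interaction test called 276 genes, 259 with RLE size factors, 596 in DESeq2, 754 with no filter, and 111 to 1185 as each replicate was left out; the cause of these differences was not tested. With the replicate number as a block the irradiation comparison called 5469 genes and the interaction test 229; the replicate numbers were not taken to pair the libraries, since same-numbered libraries correlated at 0.0392, 0.0205 and 0.0420 in their deviations from the group means, although each correlated best with its own number, a hint from the data and not the design. The median log2 fold change of all genes stayed between -0.0159 and 0.0065 in the 6-library fit and its 13 alternatives. Of 166 genes named that passed the test, 162 also passed under each of the 13 alternatives that gave them a value, and SNHG19, NR1D1, DBP and TEF lost the threshold in 17 values between them; none of the 166 changed direction. Genes named by rule had to pass the fit to all 12 libraries, so that alternative could not fail for them. Of all 5224 calls, 58.4% were kept in the fit to all 12 libraries and 75.4% in DESeq2. Medians of the 57 lists moved by more than the spread between libraries in 102 of 740 values. Calls were fewer among the genes of lowest mean level, and the part of depth in this was not tested. On simulated counts of 16072 genes for the irradiation comparison, 200 of them changed, 64% of genes changed 1.5-fold and 84% of genes changed 2-fold were recovered. There were 26 false among 199 calls, a share above the threshold of 0.05. Far more genes were called in the data than were changed in the simulation, so these rates do not carry over to the data.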

Other observations

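Genes of neurons and synapses, which lung carcinoma lines can express, changed in opposite directions. Of 41 tested, 9 were higher and 10 lower, beside 16.5% and 16% over all genes tested, and the 10 became 6 without sham replicate 1. The counts lie near those shares and are not read as a trait of the list. The NMDA receptor subunit gene GRIN2C had 11.9, 14.4 and 12.8 CPM in irradiated cells, against 3.14, 2.504 and 4.77 CPM in sham cells, with a log2 fold change of 1.88 ± 0.18 (SE; edgeR, adjusted p = 6.24e-09). The complexin gene CPLX2 (chr5:175796310-175884020), whose product clamps vesicle fusion, had the largest loss in CPM named by rule, with 1851, 1984 and 1944 CPM in irradiated cells, against 2712, 2761 and 2696 CPM in sham cells and a log2 fold change of -0.52 ± 0.037 (SE; edgeR, adjusted p = 6.77e-12). SYP and SYT7, which encode proteins of synaptic and secretory vesicles, fell to 5.13 ± 1.83 CPM in irradiated cells, against 13.2 ± 1.66 CPM in sham cells for SYP and to 2.17 ± 0.151 CPM in irradiated cells, against 5.21 ± 0.783 CPM in sham cells for SYT7 (SD, n = 3 each), log2 fold changes of -1.37 ± 0.2 and -1.28 ± 0.21. The groups overlapped for none of the 4 genes.

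Heat shock genes rose more often than they fell. Of 29 heat shock and chaperone genes tested, 11 rose and 3 fell, with HSPA4L, a member of the HSP110 family, at a log2 fold change of 1.11 ± 0.076 and the small heat shock protein gene HSPB8 at 0.77 ± 0.12, while HSPB1 did not pass the test at 0.014 ± 0.048. Of 49 genes of the primary cilium, 14 fell and 1 rose, and the 14 became 5 in the fit to all 12 libraries. RFX2, a transcription factor of ciliogenesis, had 5.44, 5.13 and 4.49 CPM in irradiated cells, against 9.105, 8.51 and 8.65 CPM in sham cells, a fall of -0.82 ± 0.15 without overlap. Of 18 genes of insulin-like growth factor binding and insulin signalling, 5 rose and 6 fell. IGFBP7 and PAPPA, which encode an insulin-like growth factor binding protein and a protease that cuts such proteins, rose by log2 fold changes of 0.83 ± 0.15 and 0.61 ± 0.043, and the insulin receptor gene INSR and its substrate gene IRS2 fell, at log2 fold changes of -0.49 ± 0.09 and -0.45 ± 0.043. Of 49 ion channel and pump genes, 14 rose and 3 fell, among them the calcium-activated potassium channel gene KCNN4 at 0.44 ± 0.06.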
